A study of Mus musculus with 12 samples.

Results

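The BCL2 family decides whether a T cell survives or dies through its mitochondria, and BATF binding was described here at 9 of its genes. The 9 genes are the prosurvival genes *Bcl2*, *Bcl2l1* and *Mcl1*, the pore-forming effectors *Bax* and *Bak1*, and the BH3-only genes *Bcl2l11*, *Bmf*, *Bbc3* and *Pmaip1*. They were taken by name from the 21774 protein-coding genes of the mouse annotation. A BATF peak was counted for a gene when its summit, the position of highest signal, lay in the gene body or within 50 kb of it. By this rule 7 of the 6260 peaks in the 4 BATF libraries belonged to the family, and they lay at 4 of the 9 genes.

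The study immunoprecipitated BATF from Th9 and Th17 cells, which were grown from naive CD4+ T cells of C57BL6/J mice and collected on day 5 without restimulation. Both cultures were activated through CD3 and CD28 and received TGF-β1 and an antibody against IFNγ. Th9 cultures also received IL-4 and IL-2, and Th17 cultures IL-6, IL-23 and IL-1β with antibodies against IL-4 and IL-2. Each cell type has 2 BATF libraries, numbered 1 and 2 for Th9 and 3 and 4 for Th17, and each of them has its own input (chromatin without antibody) and IgG library. Nothing in the labels says whether the libraries of a cell type came from separate cultures or animals. No transcripts were measured in this series, so the cell type labels could not be checked against marker genes.

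BATF is a bZIP transcription factor that pairs with a JUN protein and binds AP-1 sites, and with IRF4 it binds composite bZIP:IRF sites. In the mitochondrial pathway of apoptosis, BCL2, BCL-XL (from *Bcl2l1*) and MCL1 hold BAX and BAK in check. BH3-only proteins such as BIM (from *Bcl2l11*), BMF, PUMA (from *Bbc3*) and NOXA (from *Pmaip1*) bind to the prosurvival proteins and so free BAX and BAK to permeabilise the outer mitochondrial membrane. IL-2 and related cytokines keep activated T cells alive in part through BCL2 and MCL1, and BIM is a main driver of their death once cytokine is withdrawn.

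Peaks were those deposited by the authors, called in each library against input and IgG together unless another control is named. Fold enrichment compares the summit's signal with the background estimated around it, and −log10 q expresses the false discovery rate of the peak. The lists held 1709 and 241 peaks in Th9 libraries 1 and 2, and 4111 and 199 in Th17 libraries 3 and 4. Every peak listed had a −log10 q of 2.01 or more, so a gene without a peak stayed below that library's threshold, which does not mean that BATF was absent from it. Library 2 and library 4, with the shortest lists, limit what could be detected. In such data, fewer cells with BATF at a site and less BATF per cell cannot be told apart.

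BATF peaks were found at *Bcl2* in both cell types, at *Bcl2l11* in a Th9 library, and at *Bbc3* and *Pmaip1* in Th17 libraries. *Bcl2l1*, *Mcl1*, *Bax*, *Bak1* and *Bmf* had no peak in any of the 4 libraries. Thus 2 of the 9 genes had a Th9 region, a region being the merged peaks of both libraries of a cell type, where 10.5% of all protein-coding genes had one by the same rule. In Th17 cells it was 3 of 9, against 22.3% of protein-coding genes. A region of either cell type was present at 4 of 9, against 28.8%, and regions of both cell types were present at 1 of 9, *Bcl2*, against 3.89%. By library, Th9 library 1 had a peak at 2 members (and at 9.33% of protein-coding genes), Th9 library 2 at 1 (1.71%), Th17 library 3 at 2 (21.9%) and Th17 library 4 at 1 (1.23%). A single gene is a large share of 9, and no test was made on these counts.

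**Figure D1:**
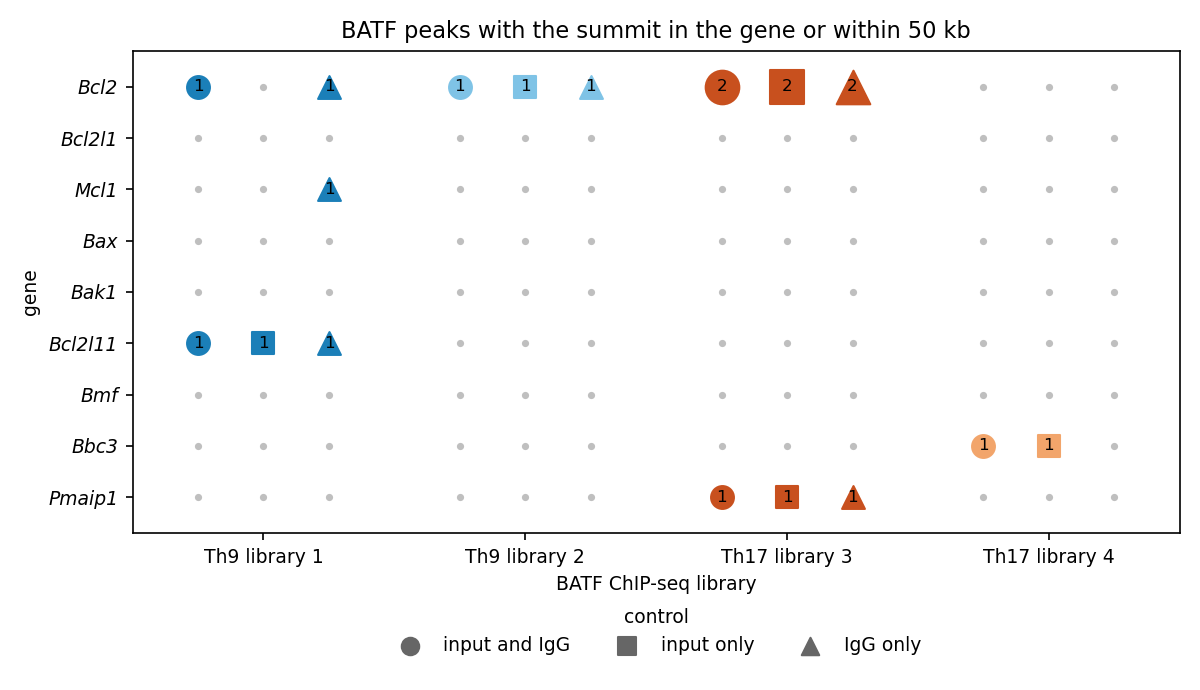
Number of BATF peaks at each of the 9 genes (rows) in each library (columns), with circles for calls against input and IgG, squares for input only and triangles for IgG only, and a small grey dot for 0 peaks. Peaks lie at *Bcl2*, *Bcl2l11*, *Bbc3* and *Pmaip1*, and at *Mcl1* only in the IgG list of Th9 library 1.

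None of the 7 peaks overlapped a peak of another library, in any of the 3 lists of that library. In the whole data, 95.3% of the regions merged over all libraries were called in 1 library. The long lists of libraries 1 and 3 (1709 and 4111 peaks) weigh most in this share. It is not given for the short lists of libraries 2 and 4 (241 and 199 peaks) alone, so it is no measure of how common this was there. The summit nearest to the start site of a member gene was at *Pmaip1*, 4935 bp upstream. No share of all regions by distance to a start site is given beside it, so nothing is read from this distance.

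*Bcl2*, the founding prosurvival gene, held 4 of the 7 peaks. It spans chr1:106538176-106714290 (GRCm38, minus strand), and 168906 of its 176115 bp are a single intron between the first and the last exon. All 4 summits lay in this intron. The peak of Th9 library 2 had its summit at 106567688, which is 146602 bp downstream of the start site, enriched 11.2-fold at a −log10 q of 15.3. That of Th9 library 1 had its summit at 106576560, 137730 bp downstream, enriched 6.04-fold at a −log10 q of 4.6. Th17 library 3 had a summit at 106586511, 127779 bp downstream (fold enrichment 8.2, −log10 q 9.3), and another at 106702759, 11531 bp downstream (fold enrichment 7.34, −log10 q 7.04). Th17 library 4 had no peak in or near the gene, and its nearest summit was 5.72 Mb away. The *Bcl2* sites of the Th9 libraries were therefore 2 different sites, each of them in 1 library, and the Th17 sites came from 1 library.

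Of the 4 *Bcl2* sites, 3 from 3 libraries stood close together in the distal part of the intron. The nearest curated start site to each of these 3 was that of *Mir3473f*, in the same intron, and not that of *Bcl2*. Their summits lay at −39880 to −21057 bp from it, upstream. The summit of Th9 library 2 was 8872 bp from that of Th9 library 1, which was 9951 bp from that of Th17 library 3, so that the 3 spanned 18.8 kb. The second summit of Th17 library 3 was a further 116 kb towards the start site. Among the 241 peaks of Th9 library 2, 61 (25.3%) had a peak of Th9 library 1 and a peak of Th17 library 3 within 20 kb, and in 4 of these (1.66% of the 241) neither overlapped it, the *Bcl2* peak among them. This count was chosen after the *Bcl2* peaks were seen and is given as a description.

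**Figure D2:**
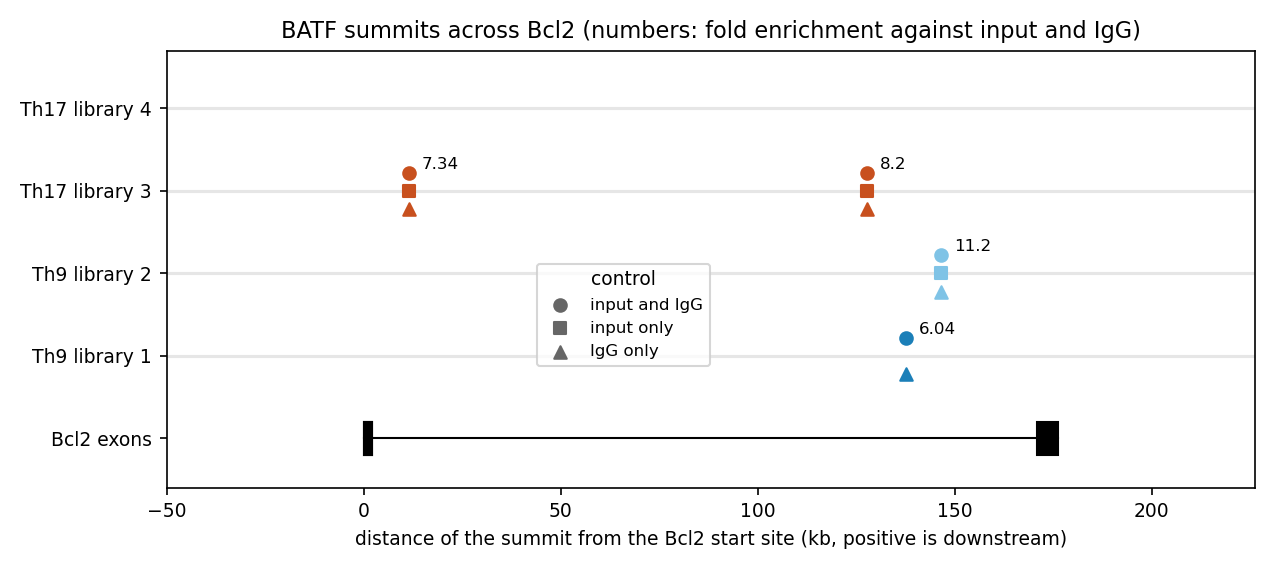
Summits of BATF peaks along *Bcl2*, as distance from its start site in kb, by library (rows) and control (marker shape), with exons as black boxes and the fold enrichment against input and IgG beside the circles. A summit from each of Th9 libraries 1 and 2 and Th17 library 3 falls between 127779 and 146602 bp, and a second summit of Th17 library 3 at 11531 bp.

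*Bcl2* is a long gene, and long genes collect more peaks under the rule used here. Its gene body with 50 kb to either side made up 22.2% of the 1.25 Mb examined over the 9 genes. Of the 1167 protein-coding genes at least as long, 62.7% had a region of either cell type and 5.4% had 4 or more, the number at *Bcl2*. Among all protein-coding genes, 123 (0.565%) had 4 or more.

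The controls bore unequally on the *Bcl2* peaks. The peak of Th9 library 2 was called against each control alone, with a fold enrichment of 9.31 against input and 11.2 against IgG. Both peaks of Th17 library 3 were also called against each, the distal one with a fold enrichment of 5.85 against input and 9.03 against IgG. The peak of Th9 library 1 was called against IgG alone, with a fold enrichment of 5.83, and was not in the list against input alone.

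The sequences at the distal *Bcl2* summits are shown because they differ in the AP-1 site, searched as TGACTCA or TGAGTCA on either strand within 100 bp of the summit. Each is 100 bases to either side of the summit on the plus strand of GRCm38, from the RefSeq genome file, and the AP-1 site is in capitals. They lie at chr1:106576460-106576660, chr1:106586411-106586611 and chr1:106567588-106567788 in the order given.
Bcl2 in Th9 library 1: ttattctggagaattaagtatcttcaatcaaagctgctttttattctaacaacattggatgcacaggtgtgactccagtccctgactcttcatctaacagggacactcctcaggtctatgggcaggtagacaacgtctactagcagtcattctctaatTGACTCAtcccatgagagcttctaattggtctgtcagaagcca
Bcl2 in Th17 library 3: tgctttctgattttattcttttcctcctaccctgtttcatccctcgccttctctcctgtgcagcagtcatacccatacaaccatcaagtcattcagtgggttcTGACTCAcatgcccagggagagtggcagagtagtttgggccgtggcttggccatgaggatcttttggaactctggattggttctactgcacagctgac
Bcl2 in Th9 library 2: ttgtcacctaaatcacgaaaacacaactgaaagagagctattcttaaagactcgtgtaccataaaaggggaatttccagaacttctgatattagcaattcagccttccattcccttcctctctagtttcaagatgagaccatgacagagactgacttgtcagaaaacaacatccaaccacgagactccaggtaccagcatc
The Th17 library 3 site held TGACTCA 3 to 9 bp from the summit, at 106586514 to 106586520, and the Th9 library 1 site held it 58 to 64 bp from the summit, at 106576618 to 106576624. The Th9 library 2 site, which ranked highest of the 7 within its own list, held none, and its best 7-base stretch differed from AP-1 by 2 bases. The peak of Th17 library 3 near the start site also held none, and also differed by 2 bases at best. Of the 18 peaks of Th9 library 2 that were at least as strong by −log10 q as the *Bcl2* peak, 4 held an AP-1 site (22.2%, exact 95% binomial interval 6.41% to 47.6%, for counting error only).

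*Bcl2l1* (chr2:152758732-152833803, minus strand), the gene of BCL-XL, had no peak within 50 kb in any list. It was the member just outside the limit. The nearest summit of Th17 library 3 was 52.1 kb downstream of the gene body, enriched 4.61-fold at a −log10 q of 2.89, and that of Th9 library 1 was 74.1 kb downstream, enriched 5.54-fold at a −log10 q of 3.82. The farthest summit inside the limit was the one at *Bbc3*, 25.6 kb from its gene body. In Th9 library 2 and Th17 library 4 the nearest summits to *Bcl2l1* were 511442 and 511496 bp upstream, close to each other.

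*Mcl1*, a short-lived prosurvival protein that T cells need throughout life, has a gene of only 6.24 kb (chr3:95656944-95663179, plus strand). Against input and IgG together the nearest summit was 561 kb (library 1) and 10.9 Mb (library 2) away in Th9 cells, and 119 kb (library 3) and 12.1 Mb (library 4) away in Th17 cells. The IgG list of Th9 library 1 alone held a peak 41.6 kb downstream of the gene.

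The effectors *Bax* (chr7:45461695-45466903) and *Bak1* (chr17:27019812-27028627) had no peak in any list either. Their proteins form the pores through which cytochrome c leaves the mitochondrion. Against input and IgG together, the nearest summit to *Bax* was that of Th17 library 3, 241 kb upstream, and in the others it was 975373 to 1432769 bp away. For *Bak1* the nearest was again that of Th17 library 3, 629774 bp downstream, and in the others it was 1.96 to 32.1 Mb away. Over all 3 lists, the nearest summit of Th17 library 4 to *Bak1* was 12.8 Mb away. For both genes the nearest summit came from the library with the longest list.

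Of the BH3-only genes, *Bcl2l11* had a peak in Th9 library 1. The gene encodes BIM and spans chr2:128126038-128162547 on the plus strand. The peak covered chr2:128117834-128118068 with the summit at 128117843, 8195 bp upstream of the *Bcl2l11* start site, which was the nearest start site of any curated gene. This position is inside the last intron of *Acoxl*, the neighbouring gene. It was enriched 7.55-fold (−log10 q 7.43), and it was called with the same fold enrichment against input alone and IgG alone. The other libraries had their nearest summits 12.5 Mb upstream (Th9 library 2), 205 kb downstream (Th17 library 3) and 239 kb downstream (Th17 library 4). So this peak too rested on 1 library.

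The sequence at the *Bcl2l11* peak is shown for a pair of sites that match AP-1 except for the middle base, TGAATCA, in capitals together with the RUNX site TGTGGTT. It is the plus strand of GRCm38 at chr2:128117743-128117943, from the same genome file.
Bcl2l11 in Th9 library 1: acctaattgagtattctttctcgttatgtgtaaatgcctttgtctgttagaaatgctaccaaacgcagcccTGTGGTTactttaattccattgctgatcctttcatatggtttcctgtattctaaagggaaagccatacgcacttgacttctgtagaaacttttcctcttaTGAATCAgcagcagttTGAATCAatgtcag
TGAATCA stood 71 to 77 and 87 to 93 bp from the summit, both inside the called peak, and no site with C or G in the middle was present. TGTGGTT stood 29 to 23 bp before the summit, outside the called peak, which began 9 bp before the summit. It was present in 7.77% of all 1878 Th9 regions (interval 6.60% to 9.08%) and in this 1 of the 3 at the members. Among the Th9 library 1 peaks at least as strong, 42.4% of 236 held an AP-1 site.

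*Bmf*, a BH3-only gene linked to anchorage and cytokine loss, spans chr2:118528757-118549686 on the minus strand. It had no peak within 50 kb in any list. Against input and IgG together, the nearest summits were 1.07 and 2.87 Mb away in Th9 libraries 1 and 2, and 1.03 and 6.17 Mb away in Th17 libraries 3 and 4. Over all 3 lists, the nearest summit of Th17 library 3 was 138 kb upstream (fold enrichment 4.28, −log10 q 2.51).

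*Bbc3*, which encodes PUMA, a target of p53, spans chr7:16308398-16318334 on the plus strand. Th17 library 4 had a peak at chr7:16343817-16343987 whose summit, 16343917, was 25583 bp downstream of the gene body and 33486 bp from the nearest *Bbc3* start site. This lies in intron 6 of *Sae1*, the gene of a subunit of the SUMO-activating enzyme, but no start site of a curated gene was nearer than that of *Bbc3*. The fold enrichment was 7.48 and the −log10 q 6.81. Against input alone it was called with a fold enrichment of 7.57, and against IgG alone it was not called. The other libraries had their nearest summits 247 kb (Th9 library 1), 3.12 Mb (Th9 library 2) and 253 kb (Th17 library 3) from the gene.

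The sequence at the *Bbc3* peak is shown because it carries a pair of composite bZIP:IRF sites. It is the plus strand of GRCm38 at chr7:16343817-16344017, from the same genome file, with the motifs in capitals. They are GAAATGACTCA at both places and, overlapping the left one, the STAT site TTCTCAGAA.
Bbc3 in Th17 library 4: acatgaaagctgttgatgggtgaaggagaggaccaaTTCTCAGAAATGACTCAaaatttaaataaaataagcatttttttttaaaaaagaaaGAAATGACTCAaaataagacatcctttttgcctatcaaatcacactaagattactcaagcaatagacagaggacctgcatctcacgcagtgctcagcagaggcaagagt
GAAATGACTCA, an IRF element directly before an AP-1 site, stood at 16343859 to 16343869 and at 16343909 to 16343919, with starts 50 bp apart, and the second covered the summit. A composite site in either arrangement searched was present in 74 of the 4206 Th17 regions (1.76%, interval 1.38% to 2.20%), and 2 or more were present in 2 of the 4206 (0.0476%, interval 0.00576% to 0.172%), this region being 1 of them. None of the 1878 Th9 regions held 2 or more (interval up to 0.196%). At least 2 AP-1 sites with C or G in the middle were present in 3.33% of Th17 regions. The counts of 2 or more sites were not among the planned comparisons and are given as a description only. The STAT site, searched as TTCNNNGAA, was present in 8.51% of Th17 regions. Of these bases, 27.4% are masked as repeats, more than in the other 6 windows. The library's peaks at least as strong held an AP-1 site in 50% (interval 39.9% to 60.1%).

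**Figure D3:**
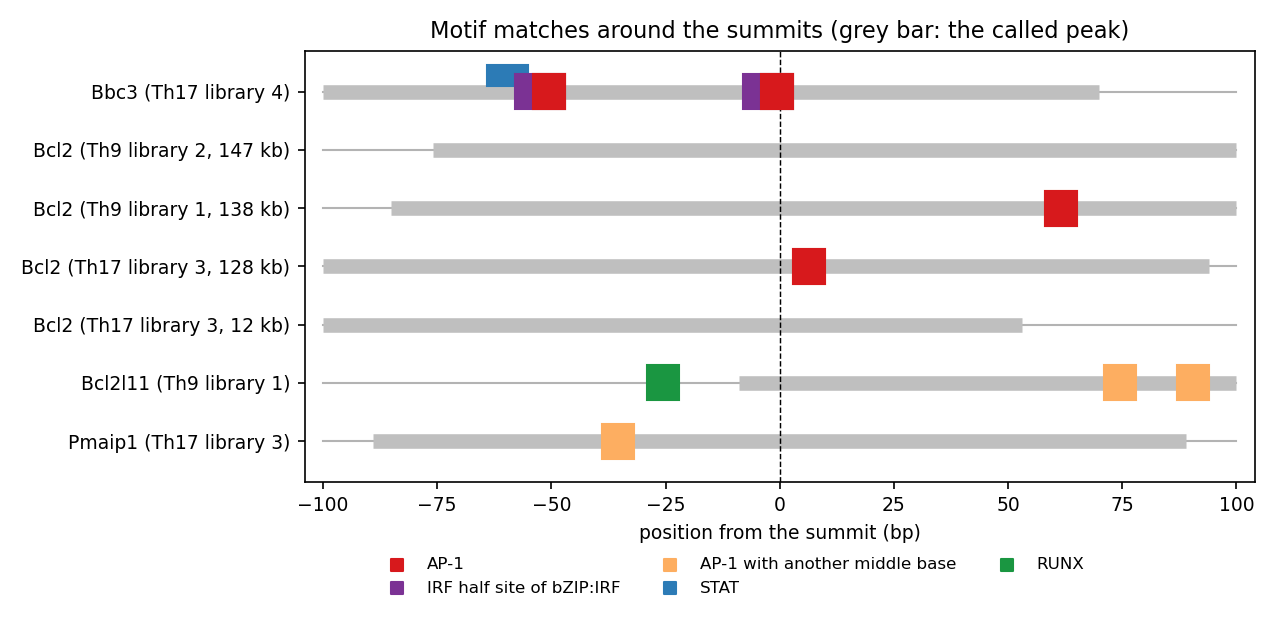
Positions of motif matches within 100 bp of the 7 summits, in bp from the summit on the plus strand, with the called peak as a grey bar cut at 100 bp. The *Bbc3* window holds both composite sites and the STAT site, 2 *Bcl2* windows an AP-1 site each, *Bcl2l11* and *Pmaip1* AP-1 matches only with another middle base (and *Bcl2l11* a RUNX site), and 2 *Bcl2* windows none.

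*Pmaip1* encodes NOXA, a BH3-only protein that binds MCL1, and lies at chr18:66458604-66465558 on the plus strand. Th17 library 3 had a peak at chr18:66453580-66453758, between genes, and the summit was 4935 bp upstream of the start site. The fold enrichment was 6.78 and the −log10 q 6.0, and it was called against input alone (6.43) and IgG alone (6.78). The nearest summits of the other libraries were 979 kb (Th9 library 1), 3.48 Mb (Th9 library 2) and 855 kb (Th17 library 4) away. It held no AP-1 site, and 1 match with another middle base 39 to 33 bp before the summit.

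Within their own libraries the 7 peaks were mostly in the stronger part of the list. By −log10 q the *Bcl2* peak of Th9 library 2 ranked 16 of 241, *Bcl2l11* 182 of 1709, and the *Bcl2* peaks of Th17 library 3 ranked 426 and 727 of 4111. *Pmaip1* ranked 988 of 4111, the *Bcl2* peak of Th9 library 1 ranked 526 of 1709, and *Bbc3* ranked 99 of 199. Peaks of equal −log10 q share the best rank. With these ties counted, 723 peaks of Th9 library 1 were at least as strong as its *Bcl2* peak and 236 as *Bcl2l11*. In Th17 library 3 it was 528 and 922 for *Bcl2* and 1217 for *Pmaip1*. For *Bcl2* in Th9 library 2 it was 18, and for *Bbc3* 102. All 7 therefore were at or above the median −log10 q of their library, which was 3.82, 5.24, 4.12 and 6.81 in libraries 1 to 4. Ranks are given within a library, since the lists carry no read counts and levels were not compared between libraries.

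**Figure D4:**
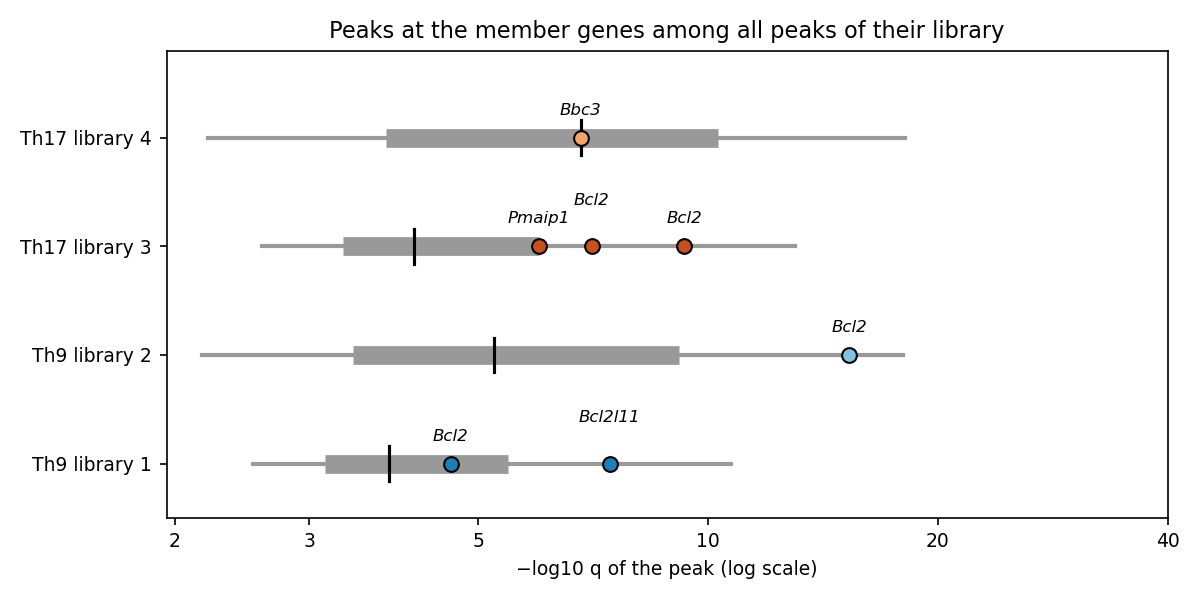
The −log10 q (log axis) of the 7 peaks (points) within the peaks of their library, drawn as the median (black tick), the middle 50% (thick bar) and the 5th to 95th percentile (thin bar). *Bbc3* sits at the median of its library, and the *Bcl2* peak of Th9 library 2 lies above the 75th percentile of 9.16.

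Over the members, 3 of 7 regions held an AP-1 site (42.9%, exact 95% binomial interval 9.90% to 81.6%). That was 1 of 3 in Th9 cells, where 15.7% of all 1878 regions had one (interval 14.1% to 17.4%), and 2 of 4 in Th17 cells, where 19.1% of all 4206 did (interval 17.9% to 20.3%). The interval of the members covers both backgrounds. With any middle base it was 5 of 7, against 18.9% of Th9 and 23.1% of Th17 regions. These backgrounds include the weaker peaks. Among peaks at least as strong in the same library, an AP-1 site with C or G in the middle was present in 25.4% for *Bcl2* in Th9 library 1. In Th17 library 3 it was 49.2% and 42.8% for *Bcl2* and 39.1% for *Pmaip1*. No such share was calculated with any middle base. A CRE (TGACGTCA) or a FOXO site (GTAAACA) was found in none of the 7, and they were present in 0.160% and 3.14% of Th9 regions and in 0.262% and 3.54% of Th17 regions. Matching letters are a description of these windows and do not show which factor was bound. The GC content of the windows ran from 35.8% at *Bbc3* to 49.8% at the distal *Bcl2* site of Th17 library 3, where the medians over all regions were 40.8% in Th9 and 41.8% in Th17 cells.

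Over all 9 genes the distance from the gene body to the nearest summit had a median of 561 kb, 3.12 Mb, 205 kb and 1.43 Mb in libraries 1 to 4. Over all protein-coding genes on chromosomes with a peak it was 506 kb, 3.63 Mb, 183 kb and 5.21 Mb. In each library the members lay on both sides of the value for all genes, and in library 4 they ran from 25.6 kb (*Bbc3*) to 32.1 Mb (*Bak1*), so the medians of 9 genes are given as a description only. Per Mb of the windows, the members had 1.61, 0.803, 2.41 and 0.803 peaks in libraries 1 to 4, against 0.627, 0.0884, 1.51 and 0.0730 in the genome. The exact Poisson intervals of the members were 0.194 to 5.80, 0.0203 to 4.47, 0.497 to 7.04 and 0.0203 to 4.47 and covered the genome value in each library. They rest on 2, 1, 3 and 1 peaks and treat peaks as independent. The genome value also takes in sequence far from genes, so nothing is read from this comparison.

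**Figure D5:**
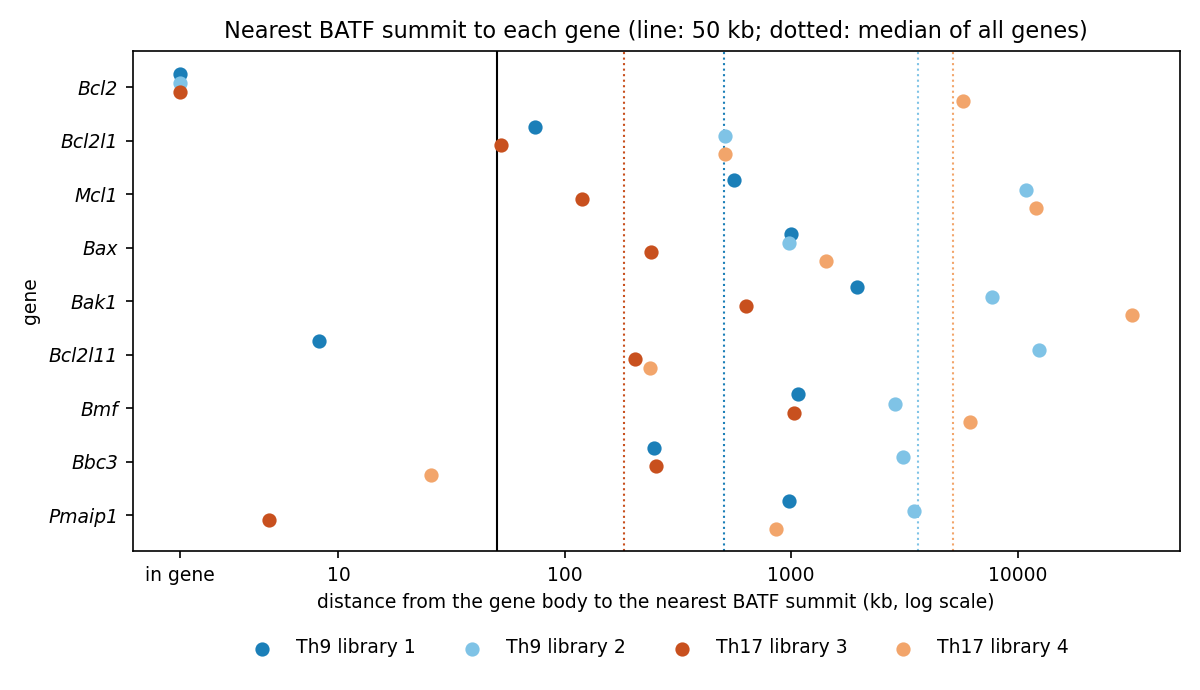
Distance from each gene body to the nearest BATF summit in each library, in kb on a log axis, with summits inside the gene drawn at the left end, the 50 kb limit as a line and the median over all protein-coding genes of each library as a dotted line. *Bcl2* has a summit inside the gene in 3 libraries, and the nearest summit to *Bak1* in Th17 library 4 is 32.1 Mb away.

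Between the cell types, the number of peaks at the members was 2 and 1 in the Th9 libraries (mean 1.5 ± 0.707, SD, n = 2) and 3 and 1 in the Th17 libraries (mean 2.0 ± 1.41, SD, n = 2). The groups overlapped. The difference of 0.5 peaks per library was smaller than either SD, and an exact two-sided permutation test gave p = 1, where the smallest p that 2 libraries against 2 allow is 0.333. A difference between Th9 and Th17 cells at these genes could therefore not be detected with this design, at *Bcl2l11*, *Bbc3* and *Pmaip1* included, which had a peak in 1 library of 1 cell type each.

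Other genes of the family were counted in the same way. These were 14 genes, among them *Bcl2l2*, *Bid*, *Bad* and the 3 *Bcl2a1* copies. The near-identical sequence of such copies can affect alignment, which was not tested here. Of the 14 genes, 0 had a Th9 region and 1 had a Th17 region, against 10.5% and 22.3% of all protein-coding genes. That gene was *Bcl2l10*, with 2 peaks of Th17 library 3, named here because the count is small. None of the 14 had a region in both cell types, as 3.89% of all protein-coding genes did, and nothing is read from so small a list.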

How the data were processed

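Peak lists of 4 BATF ChIP-seq libraries were used, 3 lists per library (12 in all). Per the study's methods and the submitters' processing notes (Trim Galore 0.4.3, Bowtie2, MACS2 2.1.0), reads were aligned to mm10 by the authors, who called peaks in each library at a q of 0.01 and kept duplicate reads. The deposited values are the fold enrichment (a ratio), −log10 p and −log10 q, besides start, end and summit. Which control was used is known only from how each list is named. Depth per library is not in the lists, so their lengths limit the precision.

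Gene bodies were the gene records of RefSeq release 108.20200622 on GRCm38, and start sites, exons and introns were those of its curated transcripts. Summit distances, merging at 1 bp of overlap, and motif matches in windows of 100 bp to either side of the summit, on both strands, were computed in Python 3.11.15 with pandas 2.3.3, numpy 2.4.6, scipy 1.17.1, pysam 0.24.0 and matplotlib 3.10.9, and were tested on simulated data. The bZIP:IRF composite was TTTC, any 4 bases and TGANTCA, or GAAA directly before TGANTCA. Comparisons were counts beside those of all protein-coding genes, and 1 exact permutation test. Alternatives were other controls, a stricter q, peaks in both libraries, equal list lengths, other distances, the nearest start site, each library left out and other motif settings. The members and the list of other BCL2 family genes were chosen with earlier results of these data known. A further gene list is not reported here. All 9 members are named, with the nearest gene of each peak.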

Additional observations from a re-analysis of the deposited data

Results flagged for a closer look

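At *Mcl1* a BATF peak was present outside the lists used for the comparisons. In Th9 library 1, called against IgG only, it ran from 95704652 to 95704822 on chromosome 3. Its summit was 41559 bp downstream of the gene and enriched 7.55-fold at a −log10 q of 7.41 (rank 167 of 1501, shared by peaks of equal −log10 q). It lies between genes, and the nearest start site is that of *Adamtsl4* (−16821 bp, upstream of it). It was not called in this library against input alone or against input and IgG together, and no other library had a peak there. The part of the controls in this was not tested.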

How the results depend on the processing

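Of 101 recalculated values, 62 counted as the same, 37 as moved and 2 changed sign. The cause was not tested unless it follows from how the alternative is built. A count was the same within a set ratio of the reported one, and a share inside the exact 95% binomial interval of the reported share. The difference in peaks per library was the same if it kept its sign. These rules are loose for the AP-1 share and the difference, so the same does not mean close there. Pairs are Th9 then Th17. When a peak had to be present in both libraries, 0 and 0 members had a region, with 0 and 0 regions. With equal list lengths, the counts were 1 and 1 members with 1 and 1 regions, and with the gene body only they were 1 and 1 members, with 2 regions in Th17 cells. By the nearest start site, 1 member had 1 region in Th9 cells, since 3 *Bcl2* summits are nearer to *Mir3473f* in its intron. Leaving out each library gave 1 to 2 and 1 to 3 members with 1 to 3 and 1 to 4 regions. Without Th9 library 1 it was 1 member and 1 region in Th9 cells, and without Th17 library 3 it was 1 member and 1 region in Th17 cells. With GENCODE gene bodies, chosen after seeing the data, all 4 counts were the same.

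The difference in peaks per library (Th17 minus Th9) was −0.5 against IgG only and 0 with equal list lengths or within 10 kb (exact permutation p = 1 each), and −0.5 to 1.5 with each library left out. The share of all genes with a region was 9.57% and 20.5% over all gene types, 9.57% in Th9 cells against input only, 9.02% and 18.6% against IgG only, 7.19% and 16.3% for peaks called against both single controls, 3.91% and 11.2% at a −log10 q of 5 or more, 2.32% and 2.30% with equal list lengths, 3.61% and 7.27% in the gene body, 5.13% and 10.5% within 10 kb, and 16.6% and 34.5% within 100 kb. The AP-1 share over the members ran from 20% to 71.4%, inside its interval.

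No paired analysis was possible because Th9 and Th17 libraries carry different numbers (1 and 2, 3 and 4), so none is common to both cell types. These numbers do not show whether a Th9 and a Th17 library shared an animal, a culture date or a run, so pairing remains unknown.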
